A study of Homo sapiens with 6 samples.

Results

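Integrin and laminin subunit genes were examined by RNA sequencing of MDA-MB-231, a human cell line from triple-negative breast cancer with a mesenchymal character. The 6 libraries comprise 3 of cells that received a DNAJC12 vector (DNAJC12 overexpression) and 3 of cells that received the empty vector, and DNAJC12 is a co-chaperone of the J-domain class. No other allele, agent or time is given for either group, and the level of DNAJC12 comes from a vector and not from its own promoter. The members were all protein-coding genes of the count table whose symbol begins with ITGA or ITGB, or is LAMA, LAMB or LAMC with a number. The integrin-binding genes named ITGB1BP and ITGB3BP and the ITGBL genes were left out. This gave 38 genes of the 58735 in the table, namely 18 integrin alpha, 8 integrin beta and 12 laminin chain genes. Of these, 26 had enough counts to be tested, among 14520 genes tested in all.

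Integrins are receptors of the cell surface, each made of an alpha and a beta chain, that tie the matrix outside the cell to the actin or keratin skeleton inside it. The alpha chain largely sets which ligand is bound, while the beta chain carries the tail that recruits adaptors such as talin and kindlin. Laminins are secreted trimers of an alpha, a beta and a gamma chain and are a main building block of basement membranes, the sheets that epithelial tumour cells rest on and must cross to invade. ITGA3 and ITGA6 are the alpha chains of laminin receptors, ITGA5 that of the fibronectin receptor and ITGAV that of receptors for vitronectin and other ligands with an arginine-glycine-aspartate motif. LAMA3 and LAMB3 are chains of the laminin that the pair ITGA6 with ITGB4 binds in hemidesmosomes and the pair ITGA3 with ITGB1 in migrating cells.

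The libraries held 17967283 to 18887497 counts each. Counts of DNAJC12 itself were 522, 523 and 492 with overexpression, against 1, 0 and 0 with the empty vector, as the labels state. Levels of different genes are compared in FPKM, the authors' level scaled by gene length and a depth per library. That depth was 0.854 (overexpression replicate 2) to 1.10 (overexpression replicate 1) times the total counts of the library. Sums of FPKM depend on this scaling, while shares and ratios within a library do not. The defining genes of the line were present, with VIM, CD44, AXL, CAV1 and MSN at means of 58.6 FPKM (CD44) to 317 FPKM (AXL), while ESR1 and PGR, the hormone receptors that it lacks, had 4 and 7 counts in all 6 libraries together. The other genes listed as absent or low in this line were detected. ERBB2, EPCAM and CDH1 had means of 9.21, 2.72 and 0.64 FPKM. Of the genes that define the line, CAV1 and AXL were higher with DNAJC12 overexpression without overlap of the groups. Their log2 fold changes were 0.91 ± 0.26 and 0.44 ± 0.21 (SE), and 9.26% of all tested genes were higher without overlap. The groups overlapped in VIM, CD44 and MSN, and 0 of the 5 passed the test with all libraries. With the GC correction described below 2 of the 5 were called higher, against 10.2% of all genes. Whether a group's libraries come from separate cultures is not stated, so the p-values reflect the spread between these particular samples, and that spread may be technical. In bulk RNA, fewer cells with a transcript and less transcript per cell cannot be told apart.

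Overexpression replicate 2 stood apart from its group, and it did so according to the base composition of the genes. The genes ITGA3, ITGB4 and ITGA6 show the contrast, and 150 coding bases from the middle of the longest coding sequence of each are printed here from GENCODE 29 on GRCh38, with G and C in capitals and a and t in lower case. The ITGA3 bases come from exons 11 and 12 (chr17:50075514-50075735, plus strand) and the ITGB4 bases from exons 24 and 25 (chr17:75742366-75742607, plus strand). The ITGA6 bases come from exons 12 and 13 (chr2:172480006-172484885, plus strand), and every span includes the intron between the exons.
ITGA3: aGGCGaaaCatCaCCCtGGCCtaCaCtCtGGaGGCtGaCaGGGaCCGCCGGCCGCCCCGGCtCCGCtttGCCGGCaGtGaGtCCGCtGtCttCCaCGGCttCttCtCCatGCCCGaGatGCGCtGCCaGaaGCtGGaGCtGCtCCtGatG
ITGB4: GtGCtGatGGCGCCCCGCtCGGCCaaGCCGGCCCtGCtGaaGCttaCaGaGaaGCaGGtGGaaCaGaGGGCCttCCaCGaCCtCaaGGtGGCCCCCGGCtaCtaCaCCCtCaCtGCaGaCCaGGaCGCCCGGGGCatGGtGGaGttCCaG
ITGA6: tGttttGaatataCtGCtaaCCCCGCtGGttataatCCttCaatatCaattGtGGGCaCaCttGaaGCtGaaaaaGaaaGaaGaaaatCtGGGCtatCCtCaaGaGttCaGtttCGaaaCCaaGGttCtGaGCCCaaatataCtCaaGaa
G and C made up 65.3% of the ITGA3 stretch, 66.0% of the ITGB4 stretch and 38.7% of the ITGA6 stretch. Over the whole coding sequence the shares were 60.1% for ITGA3, 63.3% for ITGB4 and 44.7% for ITGA6.

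The gap of overexpression replicate 2 to the mean of overexpression replicates 1 and 3 was 0.73 for ITGA3 and 0.82 for ITGB4 in log2 CPM, and -1.35 for ITGA6 and -1.41 for ITGB1. CPM are counts scaled to library size after TMM normalization. The 5 tested members whose transcripts held under 45% G and C had gaps of -1.92 to -1.35, with a median of -1.77, and the 9 members at 58% or more had gaps of -0.05 to 1.39, with a median of 0.66. Across the 26 tested members the gap followed GC content with a Pearson r of 0.91 and a Spearman rho of 0.91, a description across genes that share these libraries, and over all genes r was 0.78. Empty vector replicate 2 leaned the same way with smaller gaps, with r of 0.64 over the members. Members in the middle, such as ITGB3 at 51.5% G and C with a gap of 0.05, lay near 0. Results below are therefore given with all libraries. Many are also given without overexpression replicate 2, without both libraries numbered 2, or after a correction that removes a GC trend from each library. An alternative value that is not printed may differ too.

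**Figure D1:**
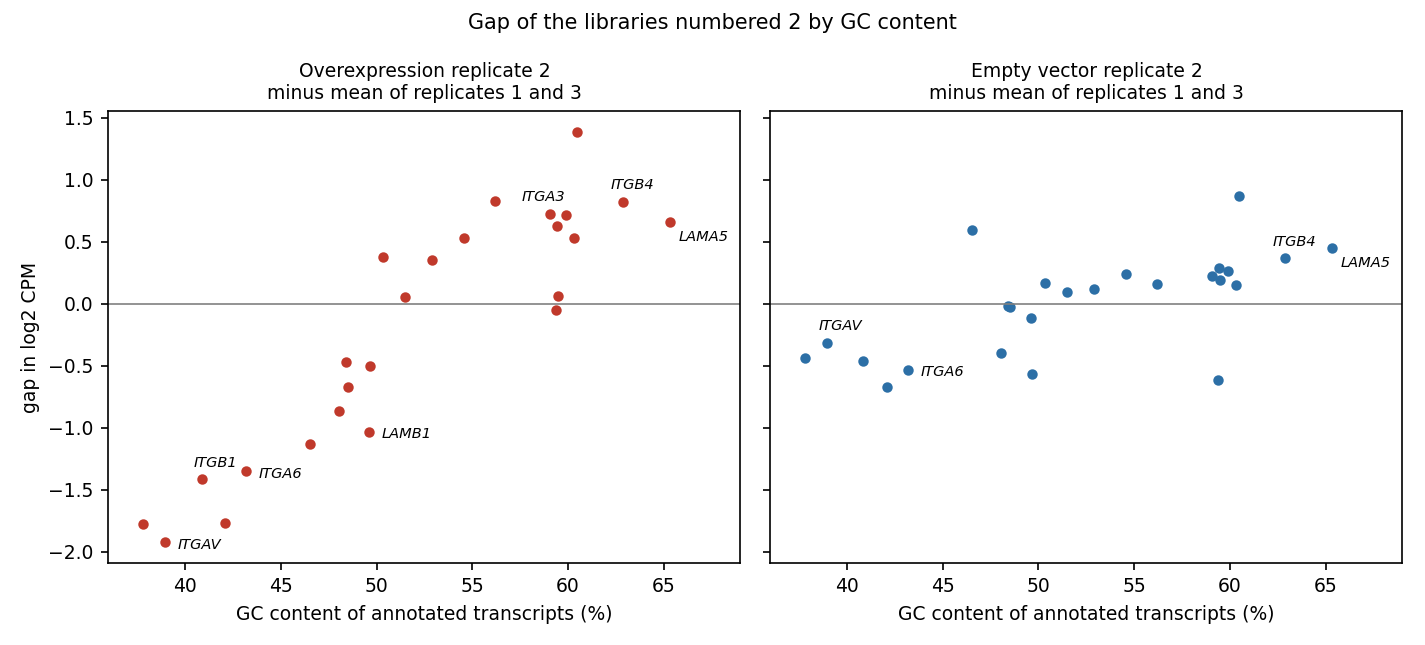
Gap of replicate 2 to the mean of replicates 1 and 3 in log2 CPM (y axis) against GC content of the annotated transcripts in percent (x axis), for tested members in the overexpression group (left panel, red) and the empty vector group (right panel, blue). In the overexpression group the gaps run from -1.92 in ITGAV to 1.39 in ITGA2B, with LAMA5 and ITGB4, the members richest in G and C, at 0.66 and 0.82.

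With all 6 libraries the test called 0 of the 26 tested members higher and 1 lower (quasi-likelihood test of edgeR, Benjamini-Hochberg adjusted over all tested genes). Among all tested genes 1.25% were called, 0.585% higher and 0.661% lower. The members with values below did not pass with all libraries, and several passed when libraries numbered 2 were left out or corrected for GC content.

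Among the laminin genes, LAMB3 (ENSG00000196878, chromosome 1, 209614870 to 209652466 on the minus strand, GRCh38) had the highest level, at a mean of 92.0 FPKM, and had 319.8, 539.8 and 383.4 CPM with DNAJC12 overexpression, against 400.8, 516.7 and 448.5 CPM with the empty vector. The groups overlapped, with overexpression replicate 2 above every empty vector library and the other two below, and the log2 fold change was -0.14 ± 0.24 (SE, adjusted p = 0.852, edgeR), or -0.37 without overexpression replicate 2 (adjusted p = 0.0981). LAMA3 had 27.6, 16.1 and 23.9 CPM with DNAJC12 overexpression, against 20.7, 23.0 and 26.5 CPM with the empty vector, and its groups overlapped too, with a log2 fold change of -0.05 ± 0.26 (SE), or 0.14 ± 0.19 (SE) without overexpression replicate 2.

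Among the other laminin beta chains, LAMB2 (ENSG00000172037, chromosome 3, 49121114 to 49133118 on the minus strand, GRCh38), a chain of vascular and neuromuscular basement membranes, had 200.7, 360.9 and 240.3 CPM with DNAJC12 overexpression, against 180.1, 229.4 and 203.5 CPM with the empty vector. Overexpression replicate 2 was the highest and replicate 1 lay within the empty vector range. With all libraries the log2 fold change was 0.39 ± 0.25 (SE, adjusted p = 0.538, edgeR), 0.11 without overexpression replicate 2 (adjusted p = 0.630) and 0.45 with the GC correction (adjusted p = 0.00441). LAMB1 (ENSG00000091136, chromosome 7, 107923799 to 108003255 on the minus strand, GRCh38), the beta chain of the widespread embryonic laminin, had 86.3, 37.4 and 68.2 CPM with DNAJC12 overexpression, against 47.1, 40.9 and 41.7 CPM with the empty vector. Overexpression replicates 1 and 3 lay above every empty vector library and replicate 2 below. The log2 fold change of LAMB1 was 0.57 ± 0.29 (SE, adjusted p = 0.431, edgeR), 0.84 without overexpression replicate 2 (adjusted p = 0.00433) and 0.79 without both libraries numbered 2 (adjusted p = 0.00130). LAMB1 was not called with the GC correction alone (0.58, adjusted p = 0.127) or without overexpression replicate 1 (0.28, adjusted p = 0.697). With the GC correction and the replicate number as a block it was called higher (0.51, adjusted p = 0.0473, edgeR). LAMB4 had 4 counts in all and was not tested.

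LAMA5, the alpha chain common in adult epithelia, was the laminin alpha gene with the highest level, at a mean of 26.6 FPKM. It had 274.3, 486.7 and 345.2 CPM with DNAJC12 overexpression, against 295.5, 480.3 and 417.5 CPM with the empty vector, and both libraries numbered 2 were the highest of their group. LAMA5 had a log2 fold change of -0.11 ± 0.27 (SE), or -0.36 ± 0.19 (SE) without overexpression replicate 2 (adjusted p = 0.194, edgeR). LAMA1, LAMA2 and LAMA4, chains of early, muscle and vascular basement membranes, were tested but had means of 0.0726 (LAMA4) to 0.0913 (LAMA2) FPKM, and their groups overlapped. LAMC1 (ENSG00000135862, chromosome 1, 183023460 to 183145592 on the plus strand, GRCh38), the gamma chain of most laminins, had 267.5, 180.4 and 234.1 CPM with DNAJC12 overexpression, against 243.3, 238.9 and 241.3 CPM with the empty vector. The LAMC1 groups overlapped, and the log2 fold change was -0.08 ± 0.21 (SE) with all libraries and 0.06 ± 0.14 (SE) without overexpression replicate 2.

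**Figure D2:**
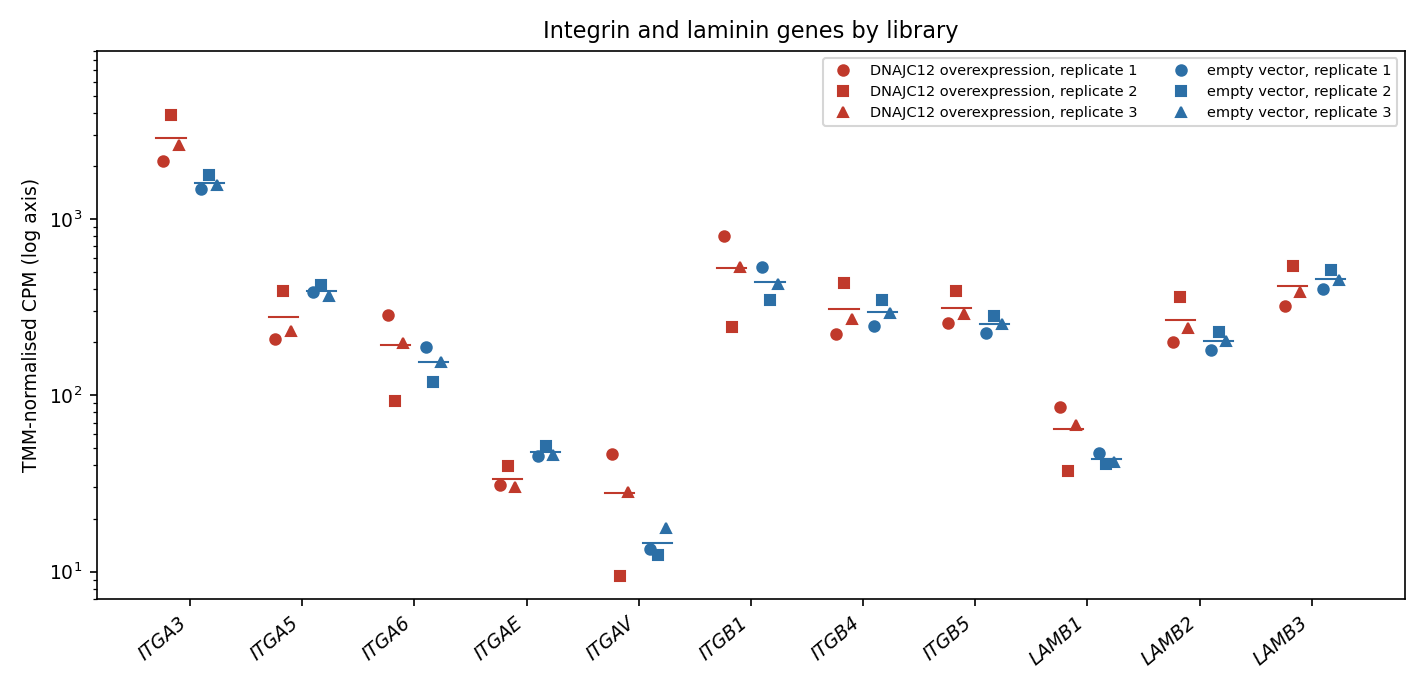
TMM-normalised CPM on a log axis (y axis) of 11 members (x axis) in every library, with DNAJC12 overexpression in red left of the empty vector in blue, the symbol giving the replicate and the line the group mean. ITGA3 runs from 2131 to 3900 CPM with DNAJC12 overexpression and from 1477 to 1774 CPM with the empty vector, and the squares of replicate 2 are the lowest of their group in ITGA6, ITGAV and ITGB1.

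Among the integrin alpha genes, ITGA3 had the highest level and also the clearest separation on the high side, though it did not pass the test with all libraries. ITGA3 (ENSG00000005884, chromosome 17, 50055968 to 50090481 on the plus strand, GRCh38) had 2131, 3900 and 2612 CPM with DNAJC12 overexpression, against 1477, 1774 and 1553 CPM with the empty vector. Every overexpression library lay above every empty vector library, and overexpression replicate 2 was far above the other two. ITGA3 averaged 2881 ± 915 CPM with DNAJC12 overexpression and 1601 ± 154 CPM with the empty vector (SD, n = 3 each), with a log2 fold change of 0.85 ± 0.25 (SE, unadjusted p = 0.00687, adjusted p = 0.154, edgeR). It was called higher without overexpression replicate 2, at a log2 fold change of 0.57 (adjusted p = 0.0190, edgeR), and without overexpression replicate 1, at 1.02 (adjusted p = 0.0322). It was called higher also without both libraries numbered 2 (0.64, adjusted p = 0.0122) and with the GC correction (0.90, adjusted p = 0.000216). It was not called without overexpression replicate 3 or without any one empty vector library, where the adjusted p lay between 0.365 and 0.464.

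ITGA5 pointed the other way in 2 of the 3 overexpression libraries. ITGA5 (ENSG00000161638, chromosome 12, 54395261 to 54419460 on the minus strand, GRCh38), whose product pairs with ITGB1 to bind fibronectin, had 209.8, 390.3 and 231.1 CPM with DNAJC12 overexpression, against 384.1, 420.2 and 366.8 CPM with the empty vector. Overexpression replicates 1 and 3 lay below every empty vector library, and replicate 2 lay among them. Its log2 fold change was -0.49 ± 0.26 (SE, adjusted p = 0.434, edgeR) with all libraries and -0.82 (adjusted p = 0.00230) without overexpression replicate 2. It was -0.78 (adjusted p = 0.000570) without both libraries numbered 2 and -0.46 (adjusted p = 0.0168) with the GC correction. ITGA5 was not called without overexpression replicate 1 or 3 (adjusted p = 0.591 and 0.849, edgeR). Nor was it called without any one empty vector library (adjusted p = 0.632 to 0.754). ITGA3 and ITGA5 have like GC contents, at 59.1% and 56.2%, and like gaps of overexpression replicate 2, at 0.73 and 0.83. The ratio of ITGA3 to ITGA5 in FPKM was 7.85, 7.72 and 8.74 with DNAJC12 overexpression, against 2.97, 3.26 and 3.27 with the empty vector. In this ratio overexpression replicate 2 did not stand apart and the groups were far from overlapping, but the pair was chosen after its values were seen and the ratio is a description without a test.

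RNA of FN1, the gene of fibronectin, the ligand of the ITGA5 receptor, was higher in every overexpression library than in any empty vector library. The gene was chosen after its values were seen. Among integrin ligands other than laminins, THBS1, EDIL3 and VTN were also higher without overlap, at log2 fold changes of 0.98, 1.35 and 1.06. TGFB3 was lower without overlap, at -0.64. Of all tested genes 9.26% were higher and 10.8% lower without overlap. FN1 had 473.3, 499.1 and 455.6 CPM with DNAJC12 overexpression, against 284.0, 307.5 and 251.3 CPM with the empty vector, and overexpression replicate 2 was close to the others. Its log2 fold change was 0.76 ± 0.19 (SE, adjusted p = 0.0917, edgeR), which missed the threshold. FN1 was called higher without overexpression replicate 2 (0.73, adjusted p = 0.00410), without both libraries numbered 2 (0.79, adjusted p = 0.000531) and with the GC correction (0.77, adjusted p = 0.000838), and by the DESeq2 Wald test (adjusted p = 0.0313). It was not called without overexpression replicate 1 or 3 or without any one empty vector library (edgeR). When each library was left out, its log2 fold change ran from 0.69 to 0.81.

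ITGA6 and ITGAV, both low in G and C, were lowest in overexpression replicate 2. ITGA6 (ENSG00000091409, chromosome 2, 172427354 to 172506282 on the plus strand, GRCh38) had 286.3, 93.1 and 197.4 CPM with DNAJC12 overexpression, against 188.7, 118.4 and 155.0 CPM with the empty vector. In both groups replicate 2 was the lowest, and overexpression replicates 1 and 3 exceeded every empty vector library. The log2 fold change of ITGA6 was 0.32 ± 0.37 (SE, adjusted p = 0.753, edgeR), 0.65 without overexpression replicate 2 (adjusted p = 0.0383), 0.48 without both libraries numbered 2 (adjusted p = 0.0460) and 0.14 with the GC correction (adjusted p = 0.563). ITGAV (ENSG00000138448, chromosome 2, 186590065 to 186680901 on the plus strand, GRCh38) had 46.4, 9.48 and 28.3 CPM with DNAJC12 overexpression, against 13.5, 12.4 and 17.8 CPM with the empty vector. Here too the overexpression libraries lay on both sides of the empty vector range. The log2 fold change of ITGAV was 0.95 ± 0.47 (SE, adjusted p = 0.414, edgeR), 1.36 without overexpression replicate 2 (adjusted p = 0.00273), 1.25 without both libraries numbered 2 (adjusted p = 1.23e-05) and 0.59 with the GC correction (adjusted p = 0.0914). Without overexpression replicate 1 it was 0.37 (adjusted p = 0.723).

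ITGAE, whose product pairs with ITGB7 and binds E-cadherin on epithelial cells in its known role on lymphocytes, was lower in each overexpression library without passing the test. ITGAE (ENSG00000083457, chromosome 17, 3714628 to 3801243 on the minus strand, GRCh38) had 30.8, 39.5 and 30.0 CPM with DNAJC12 overexpression, against 45.5, 51.3 and 45.7 CPM with the empty vector. The highest overexpression library lay below the lowest empty vector library. For ITGAE the log2 fold change was -0.51 ± 0.21 (SE, adjusted p = 0.323, edgeR), -0.64 without overexpression replicate 2 (adjusted p = 0.0154), -0.59 without both libraries numbered 2 (adjusted p = 0.0355) and -0.49 with the GC correction (adjusted p = 0.0181). ITGAE was not called without overexpression replicate 1 or 3 (adjusted p = 0.423 and 0.781) or without any one empty vector library (0.528 to 0.716). Of its exon bases 6.41% overlap HASPIN on the opposite strand, and as the strand setting of the counting is not given in the sources used here, reads of the overlap cannot be assigned to one of the genes.

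Of the other tested alpha genes, ITGA2, the alpha chain of a collagen and laminin receptor, had 103.8, 23.3 and 60.7 CPM with DNAJC12 overexpression, against 70.3, 45.2 and 73.7 CPM with the empty vector. The groups overlapped, with replicate 2 lowest in both, and the log2 fold change was -0.01 ± 0.45 (SE), or 0.38 ± 0.24 (SE) without overexpression replicate 2. ITGA1 and ITGA10, alpha chains of other collagen receptors, had means of 0.39 and 1.13 FPKM and overlapping groups. ITGA7, a laminin receptor chain known from muscle, was low, with 1.35, 1.20 and 1.15 CPM with DNAJC12 overexpression, against 2.74, 1.78 and 2.82 CPM with the empty vector. Its groups did not overlap, its log2 fold change was -0.98 ± 0.33 (SE, adjusted p = 0.203, edgeR), and it was called lower without both libraries numbered 2 (adjusted p = 0.0389) but not without overexpression replicate 2 (adjusted p = 0.0714) or with the GC correction (adjusted p = 0.101). ITGA2B, the platelet alpha chain, had 56 counts in all libraries together and overlapping groups.

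ITGB1, the beta chain shared by most of the alpha chains here, was the beta gene with the highest level, at a mean of 79.2 FPKM. ITGB1 (ENSG00000150093, chromosome 10, 32900319 to 33005792 on the minus strand, GRCh38) had 799.4, 244.4 and 531.1 CPM with DNAJC12 overexpression, against 534.9, 348.9 and 429.3 CPM with the empty vector. Replicate 2 was the lowest of each group, and the groups overlapped. For ITGB1 the log2 fold change was 0.26 ± 0.37 (SE, adjusted p = 0.809, edgeR), 0.60 without overexpression replicate 2 (adjusted p = 0.0499), 0.46 without both libraries numbered 2 (adjusted p = 0.0723) and 0.01 with the GC correction (adjusted p = 0.977).

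ITGB4, the long-tailed beta chain that pairs with ITGA6 and anchors keratin filaments, leaned the opposite way in replicate 2. ITGB4 (ENSG00000132470, chromosome 17, 75721328 to 75757818 on the plus strand, GRCh38) had 222.2, 433.6 and 270.9 CPM with DNAJC12 overexpression, against 246.0, 346.9 and 293.2 CPM with the empty vector. The groups overlapped, with a log2 fold change of 0.06 ± 0.27 (SE, adjusted p = 0.942, edgeR) and -0.26 without overexpression replicate 2 (adjusted p = 0.275). The ratio of ITGA6 to ITGB4 in FPKM, 2 chains of 1 receptor with GC contents of 43.2% and 62.9%, was 1.33, 0.222 and 0.754 with DNAJC12 overexpression, against 0.794, 0.353 and 0.547 with the empty vector. This ratio was lowest in both libraries numbered 2, and its groups overlapped.

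ITGB5, a partner of ITGAV, had 256.8, 392.2 and 287.3 CPM with DNAJC12 overexpression, against 224.3, 283.2 and 255.0 CPM with the empty vector (ENSG00000082781, chromosome 3, 124761948 to 124901418 on the minus strand, GRCh38). Overexpression replicate 1 lay within the empty vector range and the other two above it. The log2 fold change of ITGB5 was 0.30 ± 0.22 (SE, adjusted p = 0.605, edgeR), 0.10 without overexpression replicate 2 (adjusted p = 0.657) and 0.35 with the GC correction (adjusted p = 0.0210). ITGB3, another partner of ITGAV, was low but separated, with 3.96, 4.17 and 4.08 CPM with DNAJC12 overexpression, against 2.84, 3.12 and 2.98 CPM with the empty vector. Its log2 fold change was 0.45 ± 0.26 (SE, adjusted p = 0.484, edgeR), and 51.6% of its exon bases overlap AC068234.1, a gene on the same strand with 0 counts. ITGB2, the leukocyte beta chain, averaged 18.9 ± 4.25 CPM with DNAJC12 overexpression and 23.0 ± 2.71 CPM with the empty vector (SD, n = 3 each), and its groups overlapped. ITGB7 had 69 counts in all libraries together, and 42.1% of its exon bases overlap ZNF740 on the opposite strand, which held 4326 counts, so its lower values with DNAJC12 overexpression are uncertain.

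The 12 members that were not tested had few or no counts. ITGA4, a chain of a receptor for fibronectin and VCAM1, had 0 counts in all 6 libraries, where a count of 0 allows a level of up to 0.15 to 0.19 CPM in a library (3 counts, counting error only). The leukocyte alpha genes ITGAD, ITGAL, ITGAM and ITGAX had 2, 7, 12 and 18 counts in all libraries together. ITGA8, ITGA9, ITGA11, ITGB6, ITGB8, LAMB4 and LAMC3 had 1 (LAMC3) to 55 (ITGA9) counts. Of 8 leukocyte markers, 2 were abundant enough to be tested, CD14 at a mean of 4.24 FPKM (log2 fold change 0.32 ± 0.36, SE) and LCP1 at 1.98 FPKM (0.22 ± 0.34, SE), and neither passed. The others had 0 to 11 counts in all libraries together, with CD3E at 0 and the pan-leukocyte gene PTPRC at 3. The summed level of the 8 was 5.08 to 8.02 FPKM with DNAJC12 overexpression and 5.52 to 5.95 FPKM with the empty vector.

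Each class was made up mainly of a few genes, and the shares of ITGA3 and ITGA5 in the alpha class did not overlap between the groups. ITGA3 took 69.2%, 83.7% and 77.4% of the summed FPKM of all integrin alpha genes with DNAJC12 overexpression, against 60.3%, 66.6% and 63.1% with the empty vector. ITGA5 took 8.81%, 10.8% and 8.86% with DNAJC12 overexpression, against 20.3%, 20.4% and 19.3% with the empty vector. The groups did not overlap in either share, and since ITGA3 is most of the sum, the 2 shares are not independent of each other. ITGB1 took 63.6%, 23.9% and 50.1% of the summed beta FPKM with DNAJC12 overexpression, against 54.3%, 36.8% and 44.95% with the empty vector, and these groups overlapped. LAMB3 took 37.8%, 46.4% and 41.3% of the summed laminin FPKM with DNAJC12 overexpression, against 40.7%, 44.1% and 42.2% with the empty vector, and overlapped too. The summed integrin alpha level was 309.6, 474.4 and 338.8 FPKM with DNAJC12 overexpression and 246.7, 271.3 and 250.1 FPKM with the empty vector, and the summed beta level was 206.1, 169.7 and 173.6 FPKM with DNAJC12 overexpression and 162.0, 157.6 and 158.1 FPKM with the empty vector. The groups did not overlap in either sum, which is a description without a test, and ITGA3 is most of the alpha sum. The summed laminin level was 177.9, 247.3 and 194.8 FPKM with DNAJC12 overexpression and 207.4, 249.8 and 225.5 FPKM with the empty vector, and it overlapped.

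**Figure D3:**
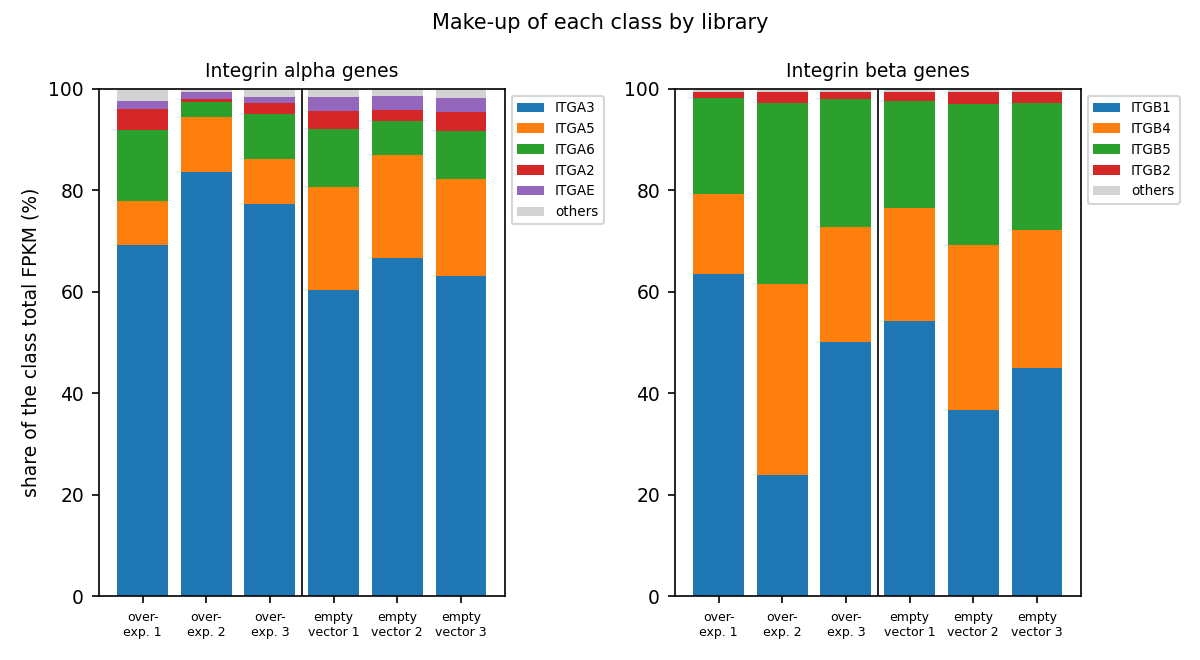
Share of each integrin gene in the summed FPKM of the alpha class (left panel) or the beta class (right panel) in percent (y axis) for every library (x axis), with the 3 overexpression libraries left of the line and the 3 empty vector libraries right of it. ITGA5 takes 8.81% to 10.8% of the alpha sum with DNAJC12 overexpression and 19.3% to 20.4% with the empty vector, and ITGB1 takes 23.9% to 63.6% of the beta sum against 36.8% to 54.3%.

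The 26 tested members showed no common direction. The log2 fold change was above 0 in 11 and below 0 in 15, with a median of -0.05, while the median over all 14520 tested genes was 0.05. The sign of the members' median depended on the libraries, at 0.10 without overexpression replicate 2, 0.14 without both libraries numbered 2 (15 of 26 above 0) and -0.18 without overexpression replicate 1. By class, the median was -0.12 for 10 integrin alpha genes, 0.16 for 6 integrin beta genes and -0.07 for 10 laminin genes. An unadjusted p under 0.05 was reached by 4 members, among them ITGA3 on the high side and ITGA7 and ITGAE on the low side, while 14.1% of all tested genes reached it. The groups did not overlap in 6 of the 26 members, 2 higher (ITGA3, ITGB3) and 4 lower (ITGA7, ITGAE and ITGB7 among them), while this held for 20.1% of all tested genes (9.26% higher and 10.8% lower). Without overexpression replicate 2, 8 of 27 members were called, with ITGA3, ITGA6, ITGAV, ITGB1 and LAMB1 higher and ITGA5 and ITGAE among those lower, against 22.5% of all genes tested in that fit (12.1% higher and 10.4% lower). With the GC correction 6 of 26 members were called, with ITGA3, ITGB5 and LAMB2 higher and ITGA5 and ITGAE among those lower, against 20.0% of all genes (10.2% higher and 9.77% lower). ITGA3, ITGA5 and ITGAE were called in the same direction in both of these and without both libraries numbered 2, where 8 of 26 members and 18.7% of all genes were called (10.3% higher and 8.41% lower). Without overexpression replicate 1, 1 member was called higher (ITGA3) and 1 lower, against 1.68% of all genes, and without overexpression replicate 3 there were 0 called members, against 0.168% of all genes, with 2 members at an unadjusted p under 0.05. Leaving out empty vector replicate 1, 2 or 3 also gave 0 called members, against 0.168%, 0.275% and 0.181% of all genes (edgeR), with 3 members at an unadjusted p under 0.05 each time. The share of all genes at that unadjusted p was not counted in the fits that left out a library.

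**Figure D4:**
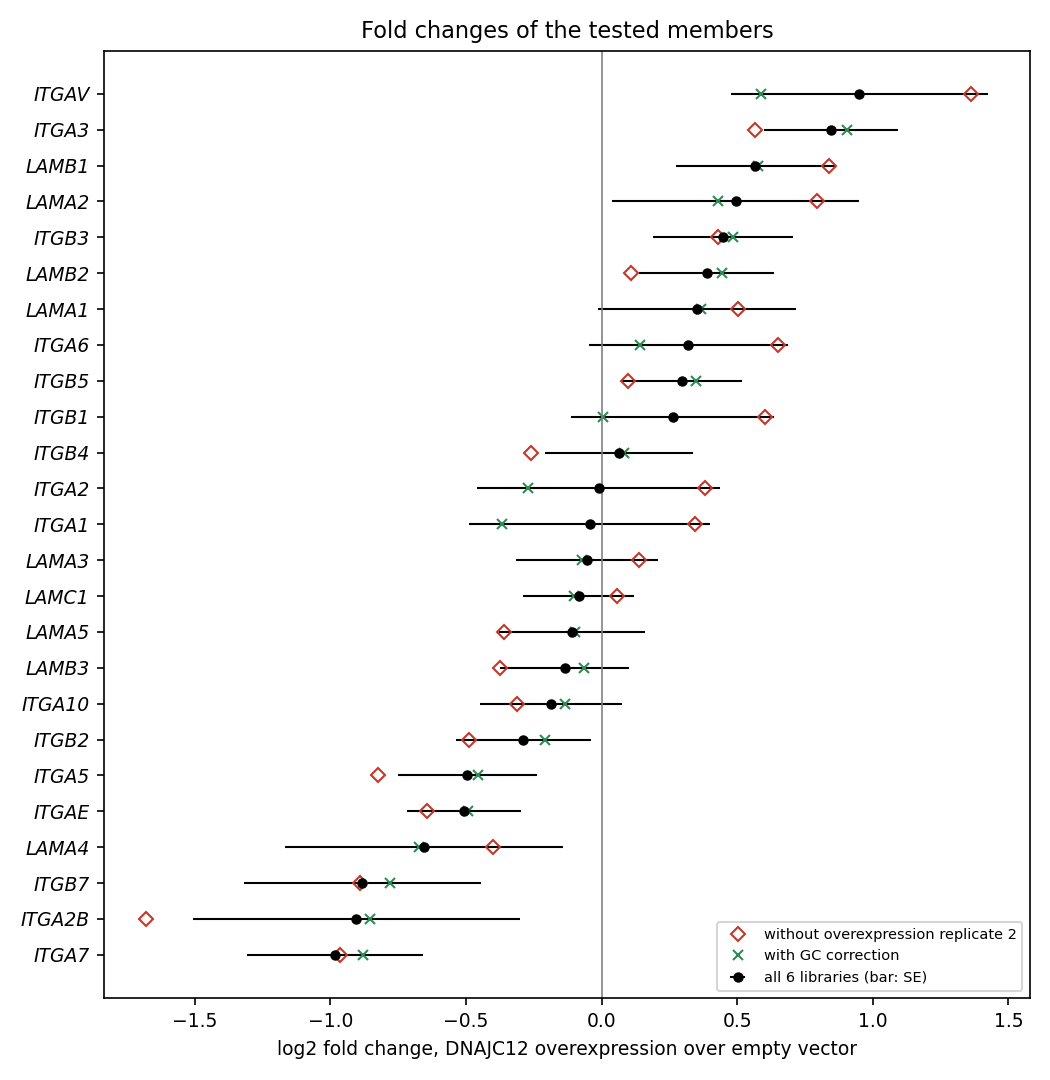
Log2 fold change of DNAJC12 overexpression over empty vector (x axis) for tested members (y axis), as black points with SE bars from all 6 libraries, red diamonds without overexpression replicate 2 and green crosses with the GC correction. ITGA3 runs from 0.57 to 0.90, ITGA5 from -0.82 to -0.46, ITGAV from 0.59 to 1.36 and ITGB1 from 0.01 to 0.60.

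Genes that work with the subunits, in 6 lists, gave 0 calls with all libraries (edgeR). Focal adhesion adaptors, which tie integrin tails to actin, had 20 of 21 genes tested and a median log2 fold change of 0.19, against 0.05 over all tested genes. An unadjusted p under 0.05 was reached by 5 of them, while 14.1% of all tested genes reached it. The DESeq2 Wald test, which called 3.89% of all genes (1.99% higher and 1.9% lower), called 1 higher and 2 lower. These shares of all genes apply also to such counts in the other lists. The adaptors with the highest levels were ACTN4, an actinin that bundles actin, at 0.44 ± 0.25 (SE) on the log2 scale, and TLN1, the talin that activates integrins, at 0.23 ± 0.25 (SE). Without overexpression replicate 2, where 22.5% of all genes were called, 3 adaptors were higher and 3 lower, and with the GC correction, where 20.0% were called, 5 were higher and 2 lower.

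Inhibitors and traffic proteins of integrins had 8 of 9 genes tested and a median of 0.13, with 0 at an unadjusted p under 0.05 and 0 called by the DESeq2 Wald test. The most abundant were FLNA, a filamin that competes with talin for the beta tail (0.30 ± 0.28), and SNX17, which recycles integrins from endosomes (0.19 ± 0.27, SE). This list had 0 calls also without overexpression replicate 2 and with the GC correction (edgeR).

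Other basement membrane genes had 10 of 14 tested, a median log2 fold change of 0.29 and 3 genes at an unadjusted p under 0.05, and the DESeq2 Wald test called 1 lower. Without overexpression replicate 2, 2 of 11 tested genes were called higher and 3 lower, and with the GC correction 4 of 10 were called higher and 2 lower, beside the same shares of all genes as above. The most abundant were the proteoglycan genes AGRN, at 0.44 ± 0.29 (SE), and COL18A1, at 0.60 ± 0.30 (SE), which were 0.15 and 0.32 without overexpression replicate 2. Integrin ligands other than laminins had 16 of 22 tested, a median of 0.19 and 5 genes at an unadjusted p under 0.05, and the DESeq2 Wald test called 4 higher. Their most abundant genes were CCN1 (0.17 ± 0.20) and CCN2 (0.01 ± 0.18, SE), secreted matrix proteins. Without overexpression replicate 2, 4 ligand genes were called higher and 2 lower (12.1% and 10.4% of all genes), and with the GC correction 7 were called higher and 1 lower (10.2% and 9.77% of all genes).

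Laminin receptors other than integrins had 6 of 6 tested, a median of -0.10 and 1 gene at an unadjusted p under 0.05, and the DESeq2 Wald test called 1 higher. Without overexpression replicate 2 these receptors had 1 called higher and 1 lower, and with the GC correction 2 higher and 1 lower, beside those same shares of all genes. They were led in level by RPSA (-0.14 ± 0.24), which is also a ribosomal protein, and SDC4 (-0.06 ± 0.19, SE), a heparan sulfate proteoglycan. The hemidesmosome partners of ITGA6 and ITGB4 had 4 of 6 tested, a median of 0.03 and 1 gene at an unadjusted p under 0.05, with 0 called by the DESeq2 Wald test. In this list 1 gene was called lower without overexpression replicate 2, without both libraries numbered 2, with the GC correction and with the replicate number as a block, where 22.5%, 18.7%, 20.0% and 13.3% of all genes were called (edgeR). PLEC, the linker to keratin, was at 0.04 ± 0.28 and CD151, a tetraspanin of laminin-binding integrins, at 0.03 ± 0.28 (SE).

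Markers of other cell types that use these integrins were low, and PECAM1 was the one that passed the test. PECAM1, an adhesion protein of endothelium and platelets, averaged 4.58 ± 0.86 CPM with DNAJC12 overexpression and 18.3 ± 3.94 CPM with the empty vector (SD, n = 3 each), and fell by 1.99 ± 0.29 (SE) on the log2 scale (adjusted p = 0.0125, edgeR). The call was lost without overexpression replicate 3 (adjusted p = 0.133) and without empty vector replicate 1 or 3 (adjusted p = 0.101 and 0.0883, edgeR). The other endothelial markers CDH5 and VWF had 8 and 14 counts in all libraries together, and KDR did not pass the test. The 4 endothelial markers summed to 0.815 to 1.36 FPKM with DNAJC12 overexpression and 2.34 to 3.36 FPKM with the empty vector. The platelet markers GP9, PPBP, PF4 and GP1BA had 0, 1, 47 and 246 counts, and the 4 summed to 0.877 to 1.49 FPKM with DNAJC12 overexpression and 2.05 to 2.13 FPKM with the empty vector. GP1BA was lower without overlap of the groups, at a log2 fold change of -1.05 ± 0.37 (SE, adjusted p = 0.233, edgeR). Without overexpression replicate 2 and with the GC correction 1 platelet marker was called lower, where 22.5% and 20.0% of all genes were called. Of 5 fibroblast markers 2 were tested and 0 were called with all libraries, with a sum of 0.843 to 1.16 FPKM with DNAJC12 overexpression and 0.699 to 1.23 FPKM with the empty vector. Without overexpression replicate 2, 1 of 3 tested fibroblast markers was called lower, where 22.5% of all genes were called. Without both libraries numbered 2, 1 of 3 was called higher, where 18.7% of all genes were called. The part of such cells in the integrin and laminin values was not tested.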

How the data were processed

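RNA sequencing counts of 6 MDA-MB-231 libraries, 3 with DNAJC12 overexpression and 3 with the empty vector, were analysed, grouped per the labels. The authors deposited raw read counts per gene and, in a table of the same genes, FPKM values. Alignment was to hg19 by HISAT2 2.0.5, per the submitters' processing notes. The coordinates in the table equal those of GENCODE 29 on GRCh38 for all 38 members and 58724 of 58735 genes, so they are given as GRCh38. Which program counted the reads, and whether by strand, is not stated in the labels, so values of overlapping genes are uncertain.

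All 6 libraries entered a comparison by edgeR 4.0.16 (R 4.3.3), its quasi-likelihood test with robust dispersions, TMM scaling and a filter by filterByExpr at a minimum count of 10 and a minimum total of 15. Benjamini-Hochberg adjustment covered the 14520 genes tested, and an adjusted p under 0.05 was called. The common biological coefficient of variation was 26.6%. No permutation test was run on single genes, since the smallest exact p for 3 against 3 libraries is 0.1. Library totals of 17967283 to 18887497 counts set the floor of 3 counts at 0.15 to 0.19 CPM, for counting error only. Replicates differed by more than sampling noise. Gaps of replicate 2 are differences of log2(CPM + 0.1).

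Members and lists were chosen with earlier results of these data known. Values in every library were given for members called in the main comparison, members with groups that do not overlap at a mean of at least 1 FPKM in the higher group, members called in an alternative at that level, and the 3 most abundant of each class. Lists name called genes, or else the 2 most abundant. LAMC1, LAMA3, LAMA5, ITGA2, ITGA7, ITGB3, FN1, THBS1, EDIL3, VTN, TGFB3, the marker genes and the ratios were added after their values were seen. Some members, markers and sequences that met these rules are counted but not reported here.

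Alternatives were DESeq2 1.42.0 (size factors, and its Wald test), other count filters, a replicate block, leaving out each library, leaving out both libraries numbered 2, library sizes without DNAJC12, limma 3.58.1 on log2 FPKM with pseudocounts of 1 and 0.1 (filter of 0.5 FPKM in 3 libraries, or none), and a GC correction. That correction removes a loess trend (span 0.3) of log2 CPM (prior count 2) on transcript GC content from each library. Figures used Python 3.11.15, pandas 2.3.3 and matplotlib 3.10.9.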

Additional observations from a re-analysis of the deposited data

How the results depend on the processing

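Of the integrin and laminin subunit genes, 0 were called higher and 1 lower with all libraries (edgeR). Called higher were 1 with no filter on low counts (2.52% of all genes called), 4 without both libraries numbered 2, 3 with the GC correction and 4 with the GC correction and replicate block (22.9% of all genes called). Called lower were 4 without both libraries numbered 2, 3 with the GC correction, 3 with the GC correction and replicate block, and 0 with limma without a filter, where 0.0439% of all genes were called. Leaving out 1 library gave 0 to 5 called higher and 0 to 3 called lower, the 5 and the 3 without overexpression replicate 2. Over all genes, 181 were called with all libraries, 3366 without overexpression replicate 2, 2754 without both libraries numbered 2 and 2903 with the GC correction. Leaving out overexpression replicate 3 or empty vector replicate 1, 2 or 3 left 25, 25, 41 and 27. The cause was not tested. PECAM1 was not called with limma without a filter, without overexpression replicate 3 and without empty vector replicates 1 and 3.

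Values near 0 changed sign. ITGB1 was -0.0058 with the GC correction and replicate block, and ITGB4, SNX17, CD151 and PLEC were -0.14, -0.072, -0.19 and -0.12 without both libraries numbered 2. With no filter, CCN2 was -0.0099 and CD151 -0.0037. In the limma fits with pseudocount 1, pseudocount 0.1 and no filter, CD151 was -0.022, -0.022 and -0.022, and PLEC -0.0068, -0.0072 and -0.0068. When each library was left out, the log2 fold change ran from -0.090 to 0.65 for ITGA6, -0.18 to 0.60 for ITGB1, -0.26 to 0.24 for ITGB4, -0.37 to 0.011 for LAMB3, -0.034 to 0.034 for CCN2, -0.29 to 0.22 for CD151, -0.055 to 0.48 for FLNA, -0.27 to 0.23 for PLEC, -0.43 to 0.029 for RPSA, -0.16 to 0.033 for SDC4, -0.16 to 0.38 for SNX17 and -0.066 to 0.38 for TLN1. The members ITGA1, ITGA2, LAMA3, LAMA5 and LAMC1 also changed sign in such fits. Integrin genes that kept their sign but moved by over 1.5 times included ITGA5 (-0.82 to -0.34), ITGAV (0.37 to 1.36) and ITGB5 (0.098 to 0.41). Laminin genes that did so included LAMB1 (0.28 to 0.84) and LAMB2 (0.11 to 0.55). Outside the members, the same held for ACTN4 (0.18 to 0.59), AGRN (0.15 to 0.63), COL18A1 (0.32 to 0.79) and CCN1 (0.07 to 0.26).

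Replicate numbers are shared by the groups, but nothing says that they pair the libraries. Deviations from the group means correlated at 0.45, 0.58 and 0.03 for numbers 1, 2 and 3, and overexpression replicate 3 correlated best with empty vector replicate 1, at 0.22. With the replicate block, 2 members were called higher (ITGA3, ITGAV) and 2 lower (ITGA5 among them), while 13.3% of all genes were called, and CD151 was -0.015.

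Depth limits the 12 members that were too low for the main test. With no filter, 11 of them were tested, with 0 called and 0 at an unadjusted p under 0.05 (edgeR), and ITGB8 was not called when either overexpression replicate 2 or empty vector replicate 3 was left out (unadjusted p = 0.0416 and 0.0161, adjusted p = 0.120 and 0.408, edgeR).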
